A study of Mus musculus with 3 samples.

Results

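The cells described here are alveolar macrophages of mouse lung that carried many transcripts of Tnf, Cxcl1 and Egr2, summed over these genes, after bacterial lipopolysaccharide (LPS). They were chosen by a rule on measured unique molecular identifiers (UMIs, each standing for 1 captured RNA molecule). Each had 500 genes or more, 1000 UMIs or more, mitochondrial genes at no more than 15% of UMIs, a UMI for at least 4 of 9 alveolar macrophage genes (Atp6v0d2, Car4, Cidec, Krt79, Lpl, Marco, Mrc1, Plet1 and Slc39a2), a UMI for at most 2 of 7 cell cycle genes, at most 1 summed UMI of Fstl1, Inhba, Palld and Creb3l1, and at least 5 summed UMIs of Tnf, Cxcl1 and Egr2. The last criterion defines the members. The other alveolar macrophages meet all but that one. There were 719 members among 3091 such alveolar macrophages of the LPS library and 887 among 2497 of the library with LPS and Reg3g, so 1606 of 5588. The whole series has 33703 barcodes, 31681 of which passed the cell filter.

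Wild-type C57BL/6 mice received 50 µL into the trachea 24 h before the lungs were taken, holding PBS, LPS at 4 mg/kg, or that dose of LPS together with Reg3g (6 µg), a lectin that epithelia secrete. Live CD45+, Ly6G-, F4/80+ cells positive for CD11b or CD11c were sorted, a gate for macrophages, and RNA was counted in single cells from its 3′ ends. Each treatment is 1 library from the pooled cells of 3 mice, so nothing between treatments has a replicate check, no test was made and no age was given. Because the members were selected on UMIs of the same cells, every comparison of members with other cells is a description. Values are counts summed over the cells of a group and divided by the group's total, per 1000000 counts (CPM). Ratios are log2 ratios of CPM, and parentheses hold 95% intervals. These reflect counting error alone and leave out how cells, mice or preparations vary.

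Alveolar macrophages live on the air side of the alveolus and are the first immune cells to meet inhaled bacteria. LPS is sensed through Tlr4, which signals through NF-kB and MAP kinases to a first wave of transcription. Tnf is the cytokine that alarms neighbouring cells and opens the vessel wall, Cxcl1 is a chemokine that draws neutrophils through Cxcr2, and Egr2 is a zinc-finger transcription factor of the immediate early class that alveolar macrophages also hold at rest. Prdm1 encodes the transcriptional repressor Blimp1, and Phlda1 is a pleckstrin-homology-like protein induced by many growth and stress signals.

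The promoters shown are those of Tnf, Cxcl1 and Egr2, whose summed UMIs define the members, and of Prdm1, a marker outside the rule. Cxcl2 and Cxcl3, a pair of related chemokine genes on chromosome 5, are added because they differed from each other in the members. The sum does not require the genes of the rule to occur together in a cell. The letters are RefSeq's, build GRCm38.p6, 5′ to 3′ on the gene's strand, from 250 bases before the start, without bases that GENCODE M21 places in an exon. Where RefSeq lists several starts, the one nearest the principal GENCODE transcript was taken. The stretches are chr17:35202008-35202257 on the minus strand (Tnf), chr5:90890995-90891240 on the plus strand (Cxcl1), chr10:67537619-67537868 on the plus strand (Egr2), chr10:44458749-44458998 on the minus strand (Prdm1), chr5:90903649-90903870 on the plus strand (Cxcl2) and chr5:90785851-90786100 on the plus strand (Cxcl3). Capitals mark matches to 1 of 5 motifs on either strand, where matches may overlap. These are an NF-kB motif (GGG, any 5 bases, then CC), the AP-1 motif TGANTCA, the cyclic AMP response element TGACGTCA, the EGR motif GCGNGGGCG and the CArG box, the element bound by serum response factor.
Tnf: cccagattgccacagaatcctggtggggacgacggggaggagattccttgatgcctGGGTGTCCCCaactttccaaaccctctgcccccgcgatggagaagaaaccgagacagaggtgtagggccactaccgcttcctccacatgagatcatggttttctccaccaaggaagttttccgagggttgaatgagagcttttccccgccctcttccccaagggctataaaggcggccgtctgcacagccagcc
Cxcl1: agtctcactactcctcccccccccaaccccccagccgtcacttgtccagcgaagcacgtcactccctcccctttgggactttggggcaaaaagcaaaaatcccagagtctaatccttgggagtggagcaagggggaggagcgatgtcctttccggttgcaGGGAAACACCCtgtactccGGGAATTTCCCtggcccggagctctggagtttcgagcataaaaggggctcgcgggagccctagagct
Egr2: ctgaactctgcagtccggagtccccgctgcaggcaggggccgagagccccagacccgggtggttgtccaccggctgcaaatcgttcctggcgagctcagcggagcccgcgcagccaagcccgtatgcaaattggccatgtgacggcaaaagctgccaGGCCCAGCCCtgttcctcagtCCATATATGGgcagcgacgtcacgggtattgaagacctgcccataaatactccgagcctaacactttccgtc
Prdm1: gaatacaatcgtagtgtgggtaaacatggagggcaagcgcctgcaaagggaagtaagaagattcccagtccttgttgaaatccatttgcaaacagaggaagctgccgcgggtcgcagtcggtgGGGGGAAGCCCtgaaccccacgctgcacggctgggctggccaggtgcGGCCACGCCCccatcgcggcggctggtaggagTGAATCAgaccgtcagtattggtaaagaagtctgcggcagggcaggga
Cxcl2: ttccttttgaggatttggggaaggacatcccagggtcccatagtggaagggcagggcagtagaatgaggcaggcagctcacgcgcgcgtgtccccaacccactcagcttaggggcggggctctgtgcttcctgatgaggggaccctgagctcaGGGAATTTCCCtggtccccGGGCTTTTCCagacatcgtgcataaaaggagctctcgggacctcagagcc
Cxcl3: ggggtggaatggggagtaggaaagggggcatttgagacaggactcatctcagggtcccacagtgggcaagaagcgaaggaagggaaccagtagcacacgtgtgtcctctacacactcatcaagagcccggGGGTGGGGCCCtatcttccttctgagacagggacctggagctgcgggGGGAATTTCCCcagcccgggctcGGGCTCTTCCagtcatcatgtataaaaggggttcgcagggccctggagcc
The Tnf stretch held 1 capital run, which begins 194 bases before the start. In Cxcl1, Cxcl2 and Cxcl3 the run GGGAATTTCCC occurred with the same letters, beginning 71, 97 and 73 bases before the start. The Egr2 stretch held a CArG box that begins 72 bases before the start, and an NF-kB match at 93. Prdm1 held the AP-1 match at 48 bases. Over 27025 genes with 1 window of 250 bases each, an NF-kB match was present in 45.4%, AP-1 in 6.87%, CArG box in 1.40%, the EGR motif in 4.65% and the cyclic AMP element in 1.62%, so an NF-kB match alone is common. These matches are letters only.

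The members carried the alveolar macrophage genes that the rule asked for, some more often than others. All 9 alveolar macrophage genes were detected in them, with a median of 7 of 9 seen per member with LPS and 8 with LPS and Reg3g. Lpl, a lipoprotein lipase, was seen in 99.0% and 99.5% of members, and Plet1, a surface protein of alveolar macrophages, in 96.5% and 98.2%. Cidec was seen in 47.3% and 55.8%, Slc39a2 in 61.6% and 57.3%, and Marco in 66.1% and 66.6%. All of these are part of the rule. Between members and other alveolar macrophages, Car4 had ratios of -0.29 and -0.40 and Plet1 of 0.95 and 0.74. Of the markers the rule did not use, Siglecf, a sialic-acid-binding receptor of alveolar macrophages, stood at 25.1 CPM in LPS members and 12.3 in the other cells, and at 37.0 and 20.5 CPM in the Reg3g library. It belongs to a list of 27 measured identity genes, of which 19 were above 0 and 6 below 0 in both libraries.

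Markers of other cells were present at low levels and did not run in 1 direction. The 9 monocyte markers summed to 794 CPM in members and 950 in other alveolar macrophages with LPS. In the Reg3g library the sums were 460 and 811 CPM. The 8 neutrophil markers gave 283 and 265 CPM with LPS and 223 and 397 with Reg3g. The 9 interstitial macrophage markers gave 327 and 392, then 218 and 294 CPM. The 10 lymphoid markers stayed between 3.18 and 14.8 CPM, the 9 dendritic markers between 13.6 and 77.3, and the 11 epithelial and endothelial markers between 37.2 and 49.2. In LPS members Klrb1c and Cd79a (lymphoid), Cd209a (dendritic) and Krt8 (epithelial) were at 0, and in Reg3g members Cd3e, Cd3g, Trbc2, Nkg7, Flt3, Cd209a, Itgae, Krt8, Col1a1 and Col3a1 were at 0.

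The libraries differed in depth, and the rule counts UMIs. Members had a median of 5976 UMIs with LPS and 6974 with Reg3g, against 5277 and 6477.5 in the other alveolar macrophages. Libraries shared 28 to 37 barcodes in pairs, and 2 LPS members and 4 Reg3g members have a barcode also found elsewhere. High doublet scores were held by 76 of 719 LPS members and 46 of 887 Reg3g members, against 270 of 2372 and 98 of 1610 other cells. In the LPS members 1 cell held 97.1% of the counts of the haemoglobin gene Hbb-bs.

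In the LPS library 23.3% (21.8 to 24.8) of alveolar macrophages were members, and in the Reg3g library 35.5% (33.6 to 37.4). In the PBS library 507 of 3706 alveolar macrophages, 13.7% (12.6 to 14.8), met the same criteria and are the background of the rule. These shares leave out alveolar macrophages over the rule's limits on Fstl1, Inhba, Palld and Creb3l1 (the Fstl1 set) or cell cycle genes. In the Fstl1 set cells, 26.1% of 2863 (LPS), 30.0% of 2105 (Reg3g) and 9 of 31 (PBS) had 5 or more summed UMIs. In the cycling cells, 32.4% of 185, 47.6% of 187 and 31 of 243 did. High sums were thus not particular to the cells kept here. When alveolar macrophages of at least 4000 UMIs were thinned to 4000, the shares were 16.5% (14.9 to 18.1) with LPS, 25.5% (23.6 to 27.4) with Reg3g and 3.03% (2.48 to 3.66) with PBS, leaving out 943, 436 and 273 shallower cells. The share moved with depth within each library, and among the shallowest cells the intervals of the LPS libraries overlap (13.9 to 18.7 and 13.6 to 20.8). Between 1000 and 4000 UMIs the rule was met by 16.2% of cells with LPS and 17.0% with Reg3g, between 4000 and 6000 by 24.6% and 39.8%, between 6000 and 8000 by 25.2% and 40.9%, and between 8000 and 12000 by 29.8% and 36.9%. In the last range the intervals of the LPS libraries (25.8 to 34.0 and 33.3 to 40.7) overlap.

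**Figure D1:**
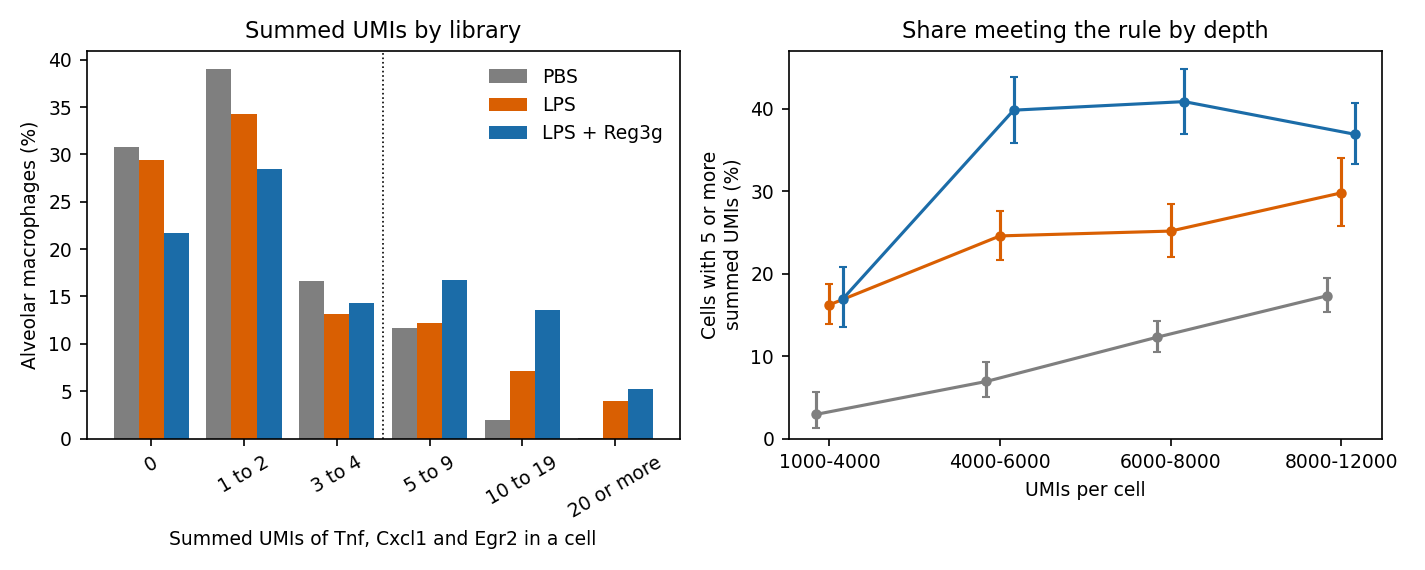
Left, share of alveolar macrophages (%) by their summed UMIs of Tnf, Cxcl1 and Egr2 in each library; the dotted line marks the threshold of 5. Right, share meeting the threshold (%) by UMIs per cell, with exact 95% intervals. Cells with 10 or more summed UMIs are frequent in both LPS libraries and rare with PBS, and the Reg3g library is above the LPS library from 4000 UMIs up.

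The PBS cells that met the rule did so mostly through Egr2, a split measured on the rule's own genes. In them Egr2 supplied 84.9% of the 3 genes' UMIs, Tnf 12.3% and Cxcl1 2.85%. At least 5 UMIs of Tnf alone were found in 12.1% of alveolar macrophages with LPS, 21.2% with Reg3g and 0.378% with PBS. For Cxcl1 alone the shares were 8.12%, 8.01% and 0.189%. For Egr2 alone they were 3.33% with LPS, 8.09% with Reg3g and 10.6% with PBS. The PBS cells were the deepest, and thinned to 4000 UMIs the Egr2 shares were 1.16%, 2.67% (2.02 to 3.46) and 2.01% (1.57 to 2.54), so PBS was then not the highest. Between the LPS libraries, without thinning, the intervals for Tnf and Egr2 do not overlap and those for Cxcl1 do.

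Within the members the 3 genes were unevenly shared. With LPS a member held a median of 5 Tnf UMIs (highest 36), 2 of Cxcl1 (highest 43) and 1 of Egr2 (highest 19). With Reg3g the medians were 5, 1 and 2 and the highest values 37, 56 and 18. All 3 genes were seen in 279 of 719 LPS members and 368 of 887 Reg3g members, and 1 of the 3 alone in 100 and 73. A member is called led by the gene with over 50% of its summed UMIs, and mixed otherwise. With LPS 47.4% were led by Tnf, 26.0% by Cxcl1 and 9.74% by Egr2, and 16.8% were mixed. With Reg3g these shares were 52.8%, 12.7%, 13.6% and 20.9%, so Cxcl1-led cells were a smaller part of the members. Of members and other alveolar macrophages together, Cxcl1-led cells were 6.05% (5.24 to 6.95) with LPS and 4.53% (3.74 to 5.42) with Reg3g, with intervals that overlap. Tnf-led cells were 11.03% and 18.7% of them. Of the PBS cells that met the rule 91.3% were led by Egr2.

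Over the alveolar macrophages kept by the rule, members and others alike, the 3 transcripts were seen together in the LPS libraries. After thinning to 2000 UMIs, Tnf was seen in 52.2% (47.8 to 56.6) of LPS cells with a Cxcl1 UMI and in 24.5% (22.8 to 26.3) of those without. With Reg3g these shares were 61.2% and 32.6%. Tnf was seen in 46.3% of LPS cells with an Egr2 UMI and 24.3% without, and in 54.9% and 30.4% with Reg3g. In the PBS library Tnf was seen in 6.86% of cells with Egr2 and 5.89% of those without, with intervals that overlap (5.48 to 8.45 and 4.99 to 6.89). Tnf was seen in 70.5% of thinned LPS members and 16.1% of other alveolar macrophages, a difference built in by the rule. In cells with lymphoid markers it was seen in 2 of 22, where 53 more were too shallow to be thinned. So few cells, whose own Tnf was not told apart, cannot say how much Tnf in other cells was free RNA. Median depths before thinning were 5976 UMIs in members, 5277 in other alveolar macrophages and 1475 in cells with lymphoid markers.

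The genes of the rule stood as follows. Tnf was at 991 CPM in LPS members and 92.7 in other alveolar macrophages, and at 887 and 88.6 CPM with Reg3g. Cxcl1 was at 673 and 35.2 CPM with LPS and at 398 and 25.2 with Reg3g. Egr2 was at 318 and 89.3 CPM with LPS and 390 and 86.2 with Reg3g, while PBS alveolar macrophages under the threshold, a choice that lowers Egr2, held 141 and those that met it 652. These differences are built in by the choice of cells. At the edge of the threshold, LPS cells with 5 summed UMIs (117 cells) held 77.5 CPM of Prdm1 and 143 of Phlda1, and those with 4 (157 cells) held 61.2 and 140. With Reg3g the cells with 5 (118 cells) held 110 CPM of Prdm1 and 125 of Phlda1, and those with 4 (143 cells) held 67.5 and 163.

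Of 7560 genes with at least 10 CPM in 1 of the 4 groups of cells, 51 were at least 2-fold higher in members in both LPS libraries, which is 0.675% of genes, and 2 at least 2-fold lower (Eno3 and Csn2, the latter with 2 counts in 1 member), which is 0.0265%. The rule used this contrast, and 3 of the 51 are its own genes. Of the other 48, 45 were also higher in the PBS cells that met the rule than in the other PBS cells, as were 3486 of the 7560 genes, but 5 were 2-fold higher there. Over the 7560 genes, 2528 were above 0 and 2541 below 0 in both LPS libraries, the background for such counts in the lists that follow. The median of all genes was -0.02 with LPS and 0.02 with Reg3g. What follows names the 14 highest and 10 lowest abundant genes and then the lists of related genes, each gene called if it passed 2-fold the same way in both LPS libraries.

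Prdm1 and Phlda1 are not part of the rule, and both were higher in members. They were taken as markers with earlier results of these data known, so their direction is no separate support. Prdm1 was at 157 CPM in LPS members and 42.8 in other cells, and at 138 and 45.0 with Reg3g, for ratios of 1.87 (1.71 to 2.03) and 1.62 (1.46 to 1.78). Phlda1 was at 285 and 107 CPM with LPS and 277 and 94.0 with Reg3g, for ratios of 1.41 and 1.56. PBS cells under the threshold held 70.1 CPM of Prdm1 and 144 of Phlda1, more than other LPS cells. Those that met it held 121 and 173. After thinning to 2000 UMIs, Prdm1 was seen in 27.4% of LPS members and 8.46% of other alveolar macrophages, and Phlda1 in 34.9% and 17.1%. Without thinning these shares were 50.1% and 17.2% for Prdm1 and 55.6% and 33.1% for Phlda1.

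A first group of genes was lower in other LPS cells than in PBS cells and stood nearer to or above the PBS level in members. Rasgef1b, a Ras-family exchange factor induced by Toll-like receptors, was at 193 CPM in LPS members, 37.8 in other LPS cells and 109 in PBS cells under the threshold, and at 155 and 30.5 CPM with Reg3g (ratio 2.35 in both). Gdf15, a stress-induced hormone of the TGF-beta family, was at 162 and 32.8 CPM with LPS, 172 and 40.4 with Reg3g and 275 with PBS. Egr1, the early growth response factor closest in class to Egr2, was at 722 and 200 CPM with LPS, 917 and 215 with Reg3g and 452 with PBS. Trib1, a pseudokinase that controls C/EBP factors, Cd83, a surface activation marker, and Bcl2l11, which encodes the pro-death protein Bim, followed the same order between members and other cells, with LPS ratios of 1.34, 1.56 and 1.43. With LPS, cells with lymphoid, neutrophil, dendritic or monocyte markers reached 937 CPM of Egr1, 521 of Trib1, 538 of Cd83 and 321 of Bcl2l11, more than members. For Rasgef1b and Gdf15 they reached 43.8 and 16.1 CPM, less than members.

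A second group was, among alveolar macrophages, highest in members and, in the other LPS cells, was not far under or was above the PBS level. Cells with neutrophil markers held more of Cxcl2, at 36457 CPM with LPS and 51509 with Reg3g. Cxcl2, a neutrophil-attracting chemokine, was at 12164 CPM in LPS members and 4053 in other cells, 8581 and 2998 with Reg3g and 378 with PBS. Nfkbiz, which encodes the nuclear NF-kB cofactor IkB-zeta, was at 442 and 120 CPM with LPS and 356 and 105 with Reg3g. Nlrp3, the inflammasome sensor, was at 422 and 110 CPM with LPS and 240 and 78.0 with Reg3g, where PBS cells under the threshold held 86.2. Ccrl2, a decoy-like receptor for chemerin, was at 521 and 171 CPM and at 397 and 147. Csrnp1 and Nfkbid, another nuclear IkB protein, had LPS ratios of 1.51 and 1.67, and Nfkbid stood at 30.6 CPM in other LPS cells and 36.2 in PBS cells. Cells with lymphoid, neutrophil, dendritic or monocyte markers also reached more than members for several of these genes. Their highest levels with LPS and with Reg3g were 1076 and 993 CPM for Nfkbiz, 903 and 1075 for Nlrp3, 1424 and 1619 for Ccrl2, and 278 and 354 for Csrnp1.

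**Figure D2:**
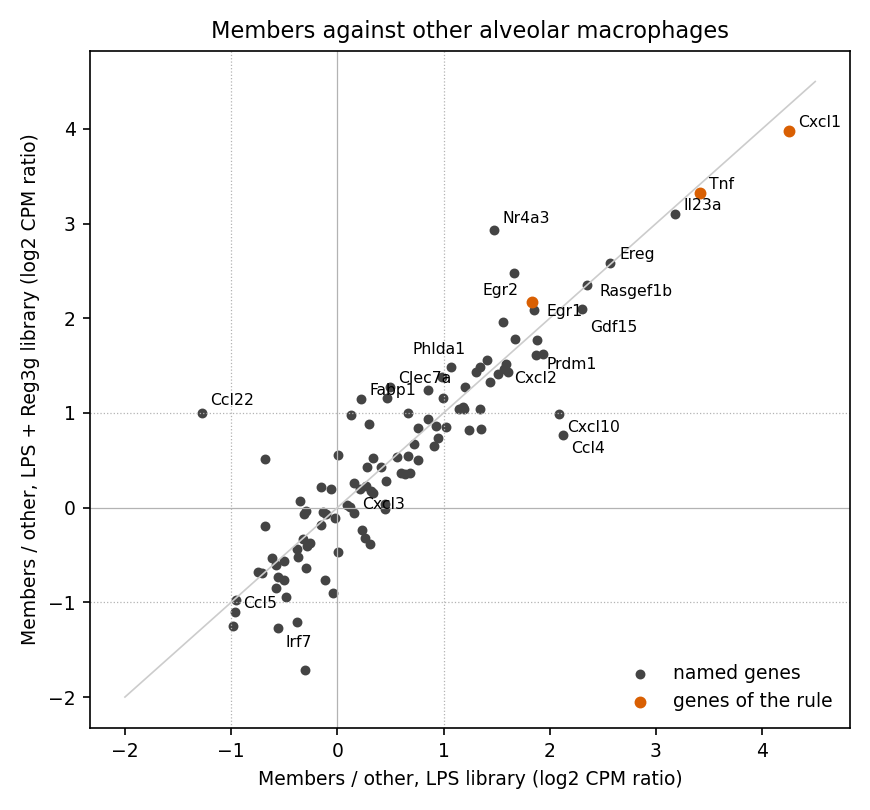
Log2 ratio of CPM in members to that in other alveolar macrophages in the LPS library (x axis) and the LPS with Reg3g library (y axis), 1 point per named gene shown, each with at least 50 counts; dotted lines mark 2-fold. Most points lie near the diagonal; Ccl4 and Cxcl10 lie below it and Fabp1 and Clec7a above it.

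Neutrophil-attracting chemokines did not move as 1 block. In the list of 6 such genes 3 were measured and 1, Cxcl2, was called. Cxcl3, a close relative, was at 1694 CPM in LPS members and 1520 in other cells (ratio 0.16, 0.12 to 0.20), and at 1711 and 1781 CPM with Reg3g (-0.06, -0.09 to -0.02). Over the range of summed UMIs with LPS it stood at 1338 CPM at 0 and 1777 at 20 or more, where Cxcl2 stood at 2643 and 20466. Both promoters hold the run GGGAATTTCCC shown above. Pf4, the third, had ratios of 0.01 and -0.46, and 1 cell held 25.2% of its counts in LPS members.

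Of the 13 measured genes of the list of CC chemokines and Cxcr3 ligands, Ccl3 alone was called, at 1305 CPM in LPS members and 513 in other cells and at 1086 and 529 with Reg3g. Ccl4, a chemokine made by activated macrophages, had a ratio of 2.12 with LPS and 0.77 with Reg3g, and Cxcl10, a ligand of Cxcr3, 2.09 and 0.99. For Ccl4 the highest level among cells with lymphoid, neutrophil, dendritic or monocyte markers was 5382 CPM with LPS and 8274 with Reg3g. Ccl5, which attracts T cells and eosinophils, went the other way. It was at 617 CPM in LPS members and 1204 in other cells, and at 601 and 1290 with Reg3g, for ratios of -0.96 (-1.02 to -0.91) and -1.10 (-1.15 to -1.05). In cells with lymphoid, neutrophil, dendritic or monocyte markers Ccl5 reached 7663 CPM with LPS and 6648 with Reg3g, and Ccl3 2674 and 4831. Their part in these ratios was not tested. The list's medians were -0.03 and 0.36.

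Cytokines and growth factors were the list with the highest LPS median, 1.26 with LPS and 0.88 with Reg3g over 10 measured genes, against medians near 0 for all genes. Il6, Il23a, Areg and Ereg were called, 4 of 10. Ereg, an epidermal growth factor receptor ligand, was at 88.2 CPM in LPS members and 14.9 in other cells and at 49.3 and 8.23 with Reg3g. Il23a, a subunit of interleukin 23, was at 25.1 and 2.77 CPM, and at 7.12 and 0.832 with Reg3g. Il6 was at 24.8 and 8.38 CPM and at 15.0 and 5.46. These are scarce transcripts, and no gene of the list was lower in both libraries.

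Immediate early transcription factors were higher as a list but modestly so. Of 20 measured genes 17 were above 0 in both libraries and none below 0 in both, with medians of 0.49 and 0.57, and Egr1 and Nr4a3 were called. Nr4a3, an orphan nuclear receptor, was at 23.5 CPM in LPS members and 8.46 in other cells and at 25.5 and 3.33 with Reg3g. Ier2 had ratios of 0.86 and 1.24 and Maff, a small Maf factor, 0.85 and 0.93. Of the 18 NF-kB subunits and inhibitors 13 were above 0 and 3 below 0 in both, with medians of 0.35 and 0.23. Nfkbia, Nfkbid, Nfkbiz and Tnfaip3 were called, all 4 of which encode proteins that act back on NF-kB. Nfkbia, the inhibitor IkB-alpha, was at 3062 CPM in LPS members and 1387 in other cells. In LPS cells with lymphoid, neutrophil, dendritic or monocyte markers it reached 3646 CPM.

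Other response lists had 2 called genes or fewer. Cd83 and Trem1, a receptor that amplifies Toll-like signals, were called among 13 measured adhesion and activation genes (medians 0.44 and 0.51), and Bcl2l11 and Nlrp3 among 17 survival and death genes (0.22 and 0.16). Trem1 was at 75.2 CPM in LPS members and reached 1389 in LPS cells with lymphoid, neutrophil, dendritic or monocyte markers. None of 9 MAP kinase feedback inhibitors was called (0.14 and 0.10), none of 12 regulators of cytokine mRNA decay (0.08 and 0.13), although Zfp36, which targets Tnf mRNA for decay, had ratios of 1.00 and 1.16, none of 14 genes of LPS sensing (-0.02 and 0.27), and none of 8 genes of Tnf release and its receptors (0.18 and 0.07). The same held for 9 genes of prostanoid, itaconate and nitric oxide synthesis (0.18 and 0.04), 20 of glycolysis and hypoxia (-0.09 and -0.27), 16 of heat shock and stress (0.00 and -0.11), 15 of cholesterol synthesis (0.14 and 0.09) and 12 of the cytoskeleton (-0.01 and -0.01).

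Most interferon response genes had ratios below 0, but none was 2-fold lower in both libraries. Of 18 measured genes 16 were below 0 in both, with medians of -0.37 and -0.55. The monocyte marker sums given above were also lower in members, and their part in these ratios was not tested. Irf1 was called higher, at 82.0 CPM in LPS members and 35.8 in other cells. Irf7, the factor that amplifies interferon transcription, was at 55.6 and 82.1 CPM with LPS and at 26.7 and 64.5 with Reg3g (ratios -0.56 and -1.27), and at 374 and 298 CPM in cells with monocyte markers. Among the 10 lowest named genes Bst2, which tethers virions, and Cfb, complement factor B, had LPS ratios of -0.50 and -0.58. Txnip, an inhibitor of glucose uptake, was at 110 and 180 CPM. Ccl17, Batf3, Slc31a2, Serf1 and Esd had LPS ratios between -0.61 and -0.49. For Ccl17 the highest level in cells with lymphoid, neutrophil, dendritic or monocyte markers was 3131 CPM with LPS and 3484 with Reg3g.

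Genes of alveolar macrophage identity outside the rule were mostly above 0. Of 27 measured genes 19 were above 0 and 6 below 0 in both libraries, with medians of 0.18 and 0.36, and Bhlhe40, a transcription factor of self-renewing macrophages, was called at 215 CPM in LPS members and 87.3 in other cells. Reg3g itself was seen with 2 UMIs in LPS members and 1 in Reg3g members, and Extl3, its proposed receptor, stood at 16.9 CPM in members and 14.4 in other cells with LPS and at 13.9 and 16.5 with Reg3g.

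Across tiers of summed UMIs, 0, 1 to 2, 3 to 4, 5 to 9, 10 to 19 and 20 or more, most of the higher genes formed a slope and not a step. With LPS Prdm1 stood at 32.3 CPM in cells with 0 summed UMIs, 104 in those with 5 to 9 and 292 in those with 20 or more, and with Reg3g at 31.5, 110 and 203. Rasgef1b stood at 24.3, 103 and 389 CPM with LPS and Nfkbiz at 87.8, 289 and 767. Ccl5 was lower in each higher tier given, at 1281, 849 and 205 CPM with LPS and 1455, 897 and 229 with Reg3g. In PBS cells Egr1 and Gdf15 also had a slope, from 399 CPM of Egr1 at 0 summed UMIs to 681 at 10 to 19, and from 242 to 483 CPM of Gdf15. Median depth was 4748.5, 6204.5 and 5963.5 UMIs for the 3 LPS tiers given.

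**Figure D3:**
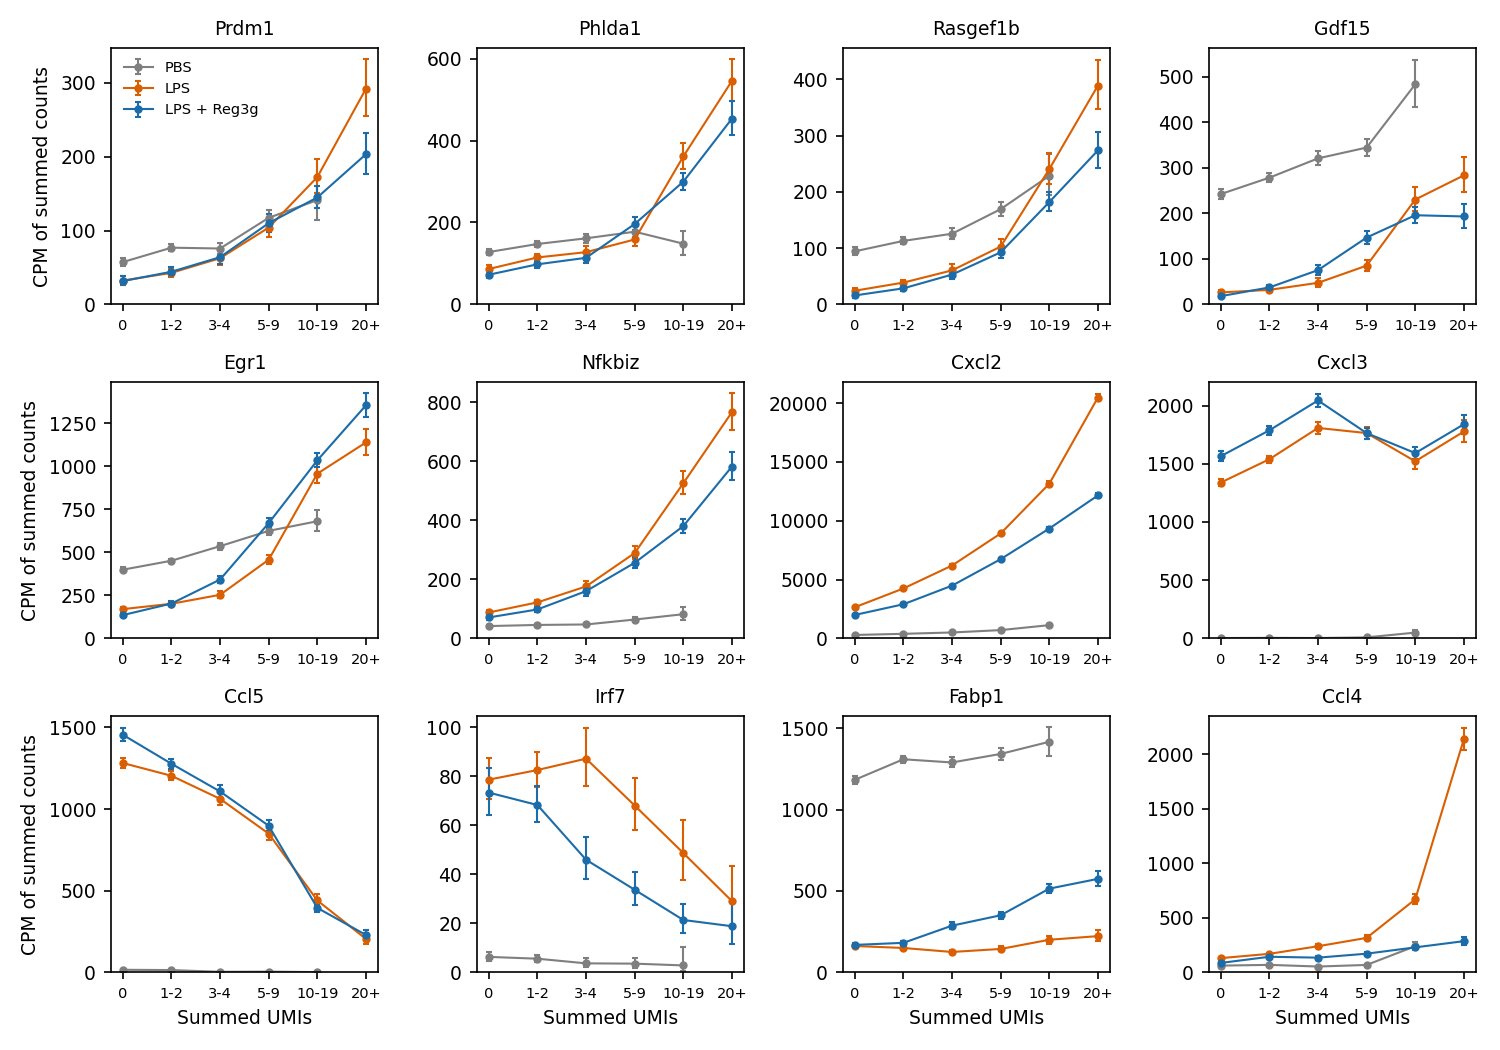
CPM of 12 genes (y axes, each from 0) against the summed UMIs of Tnf, Cxcl1 and Egr2 in a cell (x axis) in the 3 libraries, with exact 95% intervals; the PBS tier of 20 or more, with 3 cells, is left out. Prdm1, Rasgef1b and Cxcl2 climb, Ccl5 declines and Cxcl3 varies far less than Cxcl2 in the LPS libraries.

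Members led by different genes differed. With LPS Egr1 was at 993 CPM in Tnf-led members, 256 in Cxcl1-led and 616 in Egr2-led ones. Ccl4 was at 1211, 314 and 124 CPM and Cxcl10 at 843, 267 and 223 in that order. Cxcl3 was at 1369 CPM in Tnf-led members and 2468 in Cxcl1-led ones, and Ccl5 at 403 and 765. With Reg3g Egr1 was again highest in Tnf-led members (1068, 534 and 672 CPM) and Cxcl3 in Cxcl1-led ones (1370 and 2924), whereas Ccl4 was alike in Tnf-led and Cxcl1-led members (237 and 234). Leading genes were assigned from the same UMIs, so these too are descriptions.

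**Figure D4:**
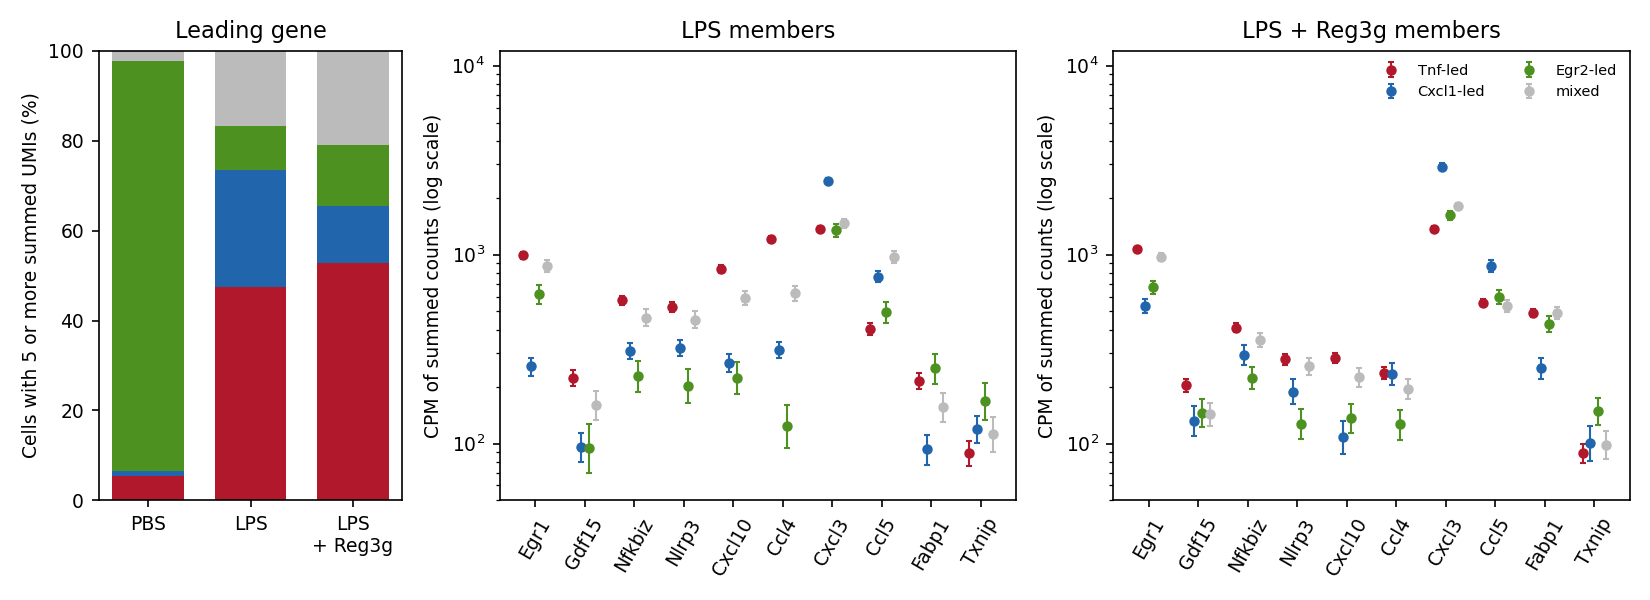
Left, share (%) of cells with 5 or more summed UMIs led by each gene, per library. Middle and right, CPM on a log scale of 10 genes in members led by each gene, with exact 95% intervals; Egr1 and Nfkbiz are highest in Tnf-led and Cxcl3 in Cxcl1-led members of both LPS libraries.

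Members with LPS and Reg3g were set beside members with LPS. Of 7411 genes with at least 10 CPM in 1 of them, 35 were at least 2-fold higher with Reg3g, which is 0.472%, and 54 at least 2-fold lower, which is 0.729%, with a median of 0.05. The balance turned to 48 higher and 37 lower without cells with 3 or more monocyte markers, and to 109 and 75 in cells of 5000 to 10000 UMIs. Tnf differed little between the members of the libraries (ratio -0.16, -0.22 to -0.10), Egr2 was somewhat higher with Reg3g (0.29) and Cxcl1 lower (-0.76). The rule set a floor on the sum of these genes in both libraries, so their ratios among members are partly fixed by it. Of members and other alveolar macrophages together, at least 5 Tnf UMIs were held by 12.1% with LPS and 21.2% with Reg3g. Prdm1 (-0.18) and Phlda1 (-0.05) were close to level. With 1 library a treatment, an effect of Reg3g and a difference between the pools cannot be told apart.

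The 6 named genes that were highest with Reg3g each stood higher still in PBS alveolar macrophages, both those that met the rule and those under the threshold. Fabp1, a fatty acid binding protein, was at 174 CPM in LPS members and 448 in Reg3g members (ratio 1.37, 1.25 to 1.48), where PBS cells meeting the rule held 1340. In other alveolar macrophages the ratio was 0.44. Larger ratios in members than in other cells are in part built in, since these genes were picked by their member ratios. Clec7a, the beta-glucan receptor Dectin-1, was at 195 and 440 CPM in members (1.17, against 0.39 in other cells) and 1073 in those PBS cells. Spp1 (osteopontin), Pros1 (protein S, a bridge to Mertk), Pdlim1 and Cpne5 had member ratios of 1.11, 1.14, 0.94 and 0.93 and other-cell ratios of 0.42, 0.29, 0.39 and 0.52. The 27 identity genes had a median of 0.28, with 2 called higher and 0 lower at this unreplicated comparison.

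The named genes that were lowest with Reg3g included a pair of chemokines. Ccl4 was at 737 CPM in LPS members and 211 in Reg3g members (-1.80, -1.89 to -1.71), against -0.45 in other cells. Its level was far higher in cells with markers of other types, given above, and their part in this ratio was not tested. Cxcl10 was at 569 and 226 CPM (-1.33, against -0.24). With any number of Fstl1 set UMIs allowed, Ccl4 was at -0.97, Cxcl10 at -0.91 and Aif1 at -0.96, short of 2-fold, and in cells of 5000 to 10000 UMIs Cxcl10 was at -0.83. Hspa1a, an inducible Hsp70, was at 97.2 and 27.4 CPM (-1.82), and at 126 and 63.3 in other cells. Scd1, a fatty acid desaturase, and Aif1, a calcium-binding protein of macrophages, had ratios of -1.49 and -1.47. In the PBS cells that met the rule Hspa1a was at 243 CPM, above both kinds of members. Ccl4, Cxcl10, Scd1 and Aif1 were below both there, at 99.6, 9.98, 5.95 and 17.8 CPM. Lcn2, an iron-sequestering antibacterial protein chosen after its values were seen, was at 1068 and 442 CPM. The monocyte markers moved with these genes: Ly6c2 was at 106 and 33.8 CPM, and 14.5% of LPS members and 8.91% of Reg3g members had 3 or more monocyte markers. Without those cells the ratio was -2.01 for Ccl4, -1.39 for Cxcl10 and -1.37 for Aif1.

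**Figure D5:**
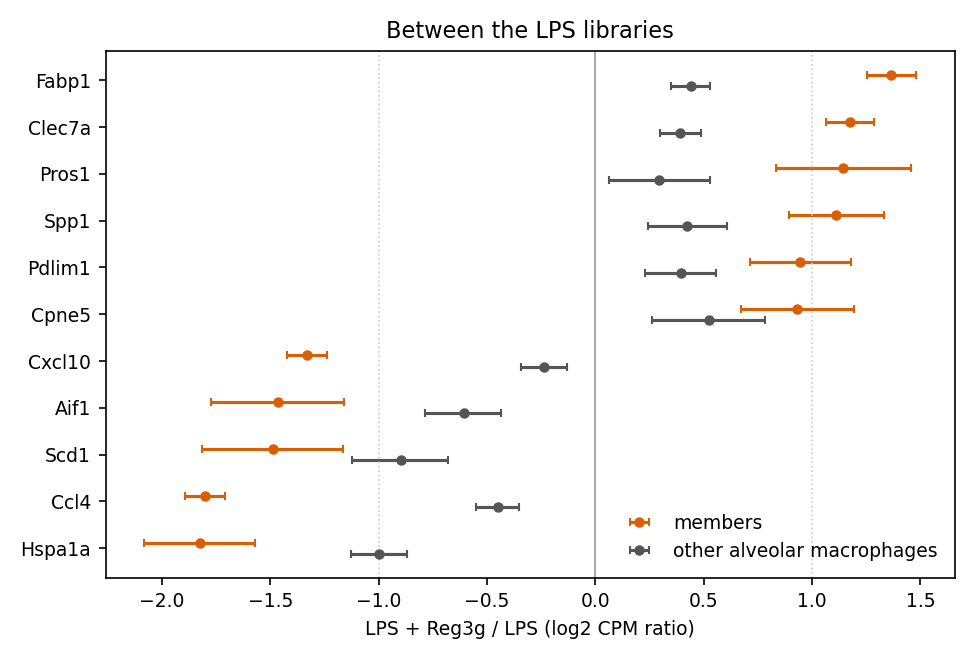
Log2 ratio of CPM with LPS and Reg3g to that with LPS alone (x axis) for 11 named genes, in members and in other alveolar macrophages, with 95% intervals for counting error; dotted lines mark 2-fold. The member ratios lie farther from 0 than those of other cells for each of the 11. The genes were chosen for extreme member ratios, so this is largely built in.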

How the data were processed

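RNA of single lung cells was measured in 3 libraries, 1 per treatment, with GEM-X 3′ chemistry. The authors deposited UMI counts per gene and barcode, and the file headers name Cell Ranger 9.0.1. Per the submitters' processing notes, Seurat 4.4.0, bcl2fastq 5.0.1 and mm10 were used. No annotation version is given in the sources used here. The libraries hold 8475 (PBS), 15015 (LPS) and 10213 (LPS with Reg3g) barcodes and 52354207, 70474636 and 60942042 UMIs. Where a symbol occurs more than once (Aldoa and Ddit3 among the listed genes), its first entry was read.

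The members, gene lists and comparisons were chosen with earlier results of these data known. Counts were summed over cells and scaled to CPM. Shares have exact Clopper-Pearson, CPM exact Poisson and ratios exact conditional binomial 95% intervals; a count of 0 was set to 3 counts in a ratio. PCR duplicates were collapsed by UMI before deposit, and intervals cover counting error only. With 1 library per treatment no p-value was computed. Named genes are the 14 highest and 10 lowest ratios of at least 50 CPM in both libraries, 6 and 6 between the LPS libraries, and up to 4 of each of 18 lists; ribosomal, mitochondrial, haemoglobin, immunoglobulin and predicted genes were not eligible. Nor were genes whose level in the higher group was under 10% of that in lymphoid-, neutrophil-, dendritic- or monocyte-marked cells of the same library. A gene named by this rule is not reported here. Doublets were kept; Scrublet scores, at 0.4% of barcodes per 1000, served as an alternative. Other alternatives changed the cell filter, threshold, markers, depth, scaling, weighting and expression floor. Calculations were tested on simulated data. Python 3.11.15, NumPy 2.4.6, SciPy 1.17.1, pandas 2.3.3, scanpy 1.11.5 and matplotlib 3.10.9 were used.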

Additional observations from a re-analysis of the deposited data

Results flagged for a closer look

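Several named genes had ratios of opposite sign in 2 groups of cells, with intervals for counting error that lie on opposite sides of 0; none of these differences was tested, since each treatment is 1 library. Between members and other alveolar macrophages, Scd1 had a ratio of 0.27 in the LPS library and -0.32 in the LPS with Reg3g library, Cxcl3 of 0.16 and -0.06, Ticam2, an adaptor of Tlr4, of -0.68 and 0.52, and Acod1, the itaconate-forming enzyme, of 0.31 and -0.39. Ccl22 had -1.27 and 1.00, and 1 cell held 75.4% of its 61 counts in Reg3g members and 37.1% of its 35 counts in LPS members. Between the LPS with Reg3g and the LPS library, Esd had a ratio of -0.35 in members and 0.11 in other alveolar macrophages, Plet1 of -0.15 and 0.07, Pf4 of -0.27 and 0.20, and Ier2 of 0.18 and -0.21.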

How the results depend on the processing

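No paired analysis was possible because each treatment is 1 library, and for the same reason no replicate could be left out. The share of alveolar macrophages that met the rule kept its order (PBS lowest, LPS with Reg3g highest) in the settings given here. For PBS, LPS and LPS with Reg3g it was 30.28%, 36.4% and 49.86% at 3 or more summed UMIs, 2.051%, 11.03% and 18.82% at 10 or more, and 3.018%, 15.39% and 22.16% with cells thinned to 4000 UMIs before the whole rule was applied. It was 26.1% (LPS) and 40.22% (with Reg3g) in cells of 5000 to 10000 UMIs, and 24.82% and 36.77% with the stricter cell filter. With any number of Fstl1 set UMIs it was 24.62% (LPS) and 32.99% (with Reg3g). These lie closer together than the 23.26% and 35.52% of the main setting. The counts of 51 genes higher and 2 lower in members became 100 and 19 with thinning (46 of the 51 shared), 92 and 21 by Tnf alone (49 shared), 25 and 7 by Cxcl1 alone (19 shared), 82 and 4 against cells with 0 summed UMIs, 33 and 0 among genes of at least 50 CPM, and 25 and 1 with any Fstl1 set UMIs (24 shared). The lower count alone moved to 34 by Egr2 alone, 13 at 10 or more UMIs, 7 in cells of 5000 to 10000 UMIs, 7 among genes of at least 5 CPM, 6 with high doublet scores removed, 4 with cells weighted equally, and 1 at 3 or more UMIs or without cells with 3 or more monocyte markers. With members chosen on one part of each cell's UMIs and measured in the rest it was 6, with 39 of the 51 higher genes shared. Between the LPS libraries, the 35 higher and 54 lower genes became 160 and 101 with thinning, 67 and 90 with split UMIs, 88 and 90 at 5 CPM, 4 and 17 at 50 CPM, and 8 and 22 with any Fstl1 set UMIs, and 21 and 43 at 3 or more UMIs. More genes were higher than lower with thinning, at 10 or more UMIs (94 and 81), in cells of 5000 to 10000 UMIs (109 and 75), with cells weighted equally (51 and 48) and without cells with 3 or more monocyte markers (48 and 37). The cause was not tested, except that CPM floors and thinning change the genes and counts entering. The named genes kept their sign in all 864 values between members and other cells and all 168 between the LPS libraries, but 317 and 28 of these values moved beyond the counting interval, while list medians changed sign in 92 of 1062. The named genes were chosen for extreme ratios in the same data, so their kept sign was largely set by that choice. The settings of 5 and 50 CPM leave each named gene's ratio unchanged but are counted among the values. The settings on Fstl1 set UMIs, monocyte markers, Egr2-led members and shared barcodes were chosen after seeing the data. Scarce genes such as Il23a rest on few counts, and shares of cells with a UMI depend on depth.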
